A study of Mus musculus with 6 samples.

Results

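The genes described here are the core autophagy genes of the mouse, chosen by symbol: the ULK kinases and their partners, the class III PI3-kinase complexes, the numbered ATG genes, the WIPI and WDR45 proteins, the ATG8 family (Gabarap and Map1lc3 genes) and the cargo receptors Sqstm1, Nbr1 and Optn. The symbols matched 40 of 32531 named genes in the count files. The matching went by symbol alone, but this group of genes was picked for study with earlier results of these data known. Their RNA was compared between immunopurified (IP) and Input libraries of the thalamus by translating ribosome affinity purification (TRAP), in which ribosomes carrying a tagged subunit are pulled down from a homogenate. IP libraries (n = 3) held RNA recovered with antibodies to EGFP from tagged polysomes of adult mice carrying Cbln1-EGFP/Rpl10a (NIDA030). Input libraries (n = 3) came from thalamus of the same line, and the labels give ribosome-bound RNA as the molecule of both kinds. All 6 libraries were from control mice with no treatment, so no library without the transgene and none with a change in autophagy was part of the comparison. The line is named for Cbln1, a gene of certain neurons, and the cells that carry the tag are the ones this line labels. Neither the sex nor the number of animals behind a library is given in the labels. The deposited file names point to the parafascicular nucleus, while the labels name only the thalamus.

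Autophagy encloses cytoplasm, organelles and protein aggregates in a double membrane, the autophagosome, which fuses with lysosomes. A ULK kinase complex starts the process, a PI3-kinase complex marks the membrane with the lipid PI3P, ATG9 vesicles and ATG2 bring lipid, and conjugation enzymes attach ATG8 proteins to the growing membrane, where they hold cargo receptors. Neurons do not divide and depend on this route to clear proteins and mitochondria, and loss of Atg5 or Atg7 in the mouse brain leads to neurodegeneration.

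The ATG8 proteins differ at the end that is attached to the membrane. ATG4 proteases cut the newly made protein after a glycine, and that glycine is then joined to phosphatidylethanolamine. The last 60 bases of each coding sequence, stop codon included, are shown 5′ to 3′ with the codon of this glycine in capitals, from the GENCODE M21 transcripts of build GRCm38, on the plus strand of each gene. The genes lie at chr11:69991143-69994951 (Gabarap), chr6:129533160-129542346 (Gabarapl1), chr8:111940703-111953612 (Gabarapl2), chr2:155276297-155278073 (Map1lc3a) and chr8:121590361-121598760 (Map1lc3b).
Gabarap: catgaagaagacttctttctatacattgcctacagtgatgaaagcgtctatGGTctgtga
Gabarapl1: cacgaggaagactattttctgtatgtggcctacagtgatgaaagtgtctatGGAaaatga
Gabarapl2: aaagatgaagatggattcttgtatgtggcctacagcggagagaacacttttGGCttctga
Map1lc3a: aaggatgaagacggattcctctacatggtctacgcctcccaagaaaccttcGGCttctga
Map1lc3b: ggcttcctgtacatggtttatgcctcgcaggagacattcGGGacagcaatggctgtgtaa
The glycine was codon 116 of 117 in the 3 Gabarap genes, codon 120 of 121 in Map1lc3a and codon 120 of 125 in Map1lc3b. Thus 1 residue follows it in 4 of the proteins and 5 residues follow it in the product of Map1lc3b. Coding sequences of Gabarap and Gabarapl1 were 74.6% identical and those of Map1lc3a and Map1lc3b 74.7%, while the other pairs lay between 50.5% and 64.2%. The longest run of identical bases between any pair of the 5 mRNAs was 17, so a sequencing read longer than this that matches 1 of these mRNAs exactly does not match another.

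Libraries held between 45256700 and 57385828 counts assigned to genes in IP and between 23929070 and 47741219 in Input, and the shallowest was Input replicate 1. Every pair of libraries within a group differed beyond sampling noise, so each was counted as 1 sample. Nothing says that replicates came from separate animals, so the p-values reflect the scatter among these libraries alone, which may be technical. Counts of Cbln1, the gene that names the line, came to 1429 ± 67.8 CPM (counts per 1e6 scaled counts) in IP, against 79.8 ± 9.64 CPM in Input (mean and SD over 3 libraries). All 10 pan-neuronal markers rose in IP, with a median log2 fold change of 0.98. Their summed level ranged from 24588 to 29108 CPM in IP and from 12626 to 13645 CPM in Input. All 10 astrocyte markers fell (840 to 899 CPM summed in IP, 2434 to 2506 in Input), as did all 10 oligodendrocyte markers (317 to 402 CPM in IP, 3712 to 4268 in Input). Of the microglia markers 7 of 10 fell (4.40 to 8.33 CPM summed in IP, 44.7 to 56.6 in Input), and of the endothelial markers 8 of 10 (0.632 to 2.70 CPM in IP, 14.5 to 18.2 in Input), with Cldn5 and Cdh5 at 0 counts in every IP library. Of 10 markers of thalamic glutamatergic neurons, 5 rose and 3 fell. In such bulk samples the share of recovered RNA that comes from a cell type and the level of a gene within its cells cannot be told apart. The part of these marker shifts in the results on autophagy genes was not tested.

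Of the 40 autophagy genes, 39 had enough counts to be tested, and more of them were higher in IP than lower. By edgeR's quasi-likelihood test with Benjamini-Hochberg adjustment over 16898 genes, with an adjusted p threshold of 0.05, 21 of the 39 rose in IP (53.8%), against 23.3% of all genes tested. Only 2 of the 39 fell (5.13%), against 24.3% of all genes, and these were Wipi1 and Atg9b. Of all tested genes 47.5% passed in either direction. The other 16 passed the test in neither direction. The median log2 fold change of the 39 genes (IP over Input) was 0.49, and that of all tested genes was -0.07. Among the 13936 protein-coding genes tested, 26.4% rose, 22.2% fell and the median was 0.01. In replicates 1, 2 and 3 the median log2 ratio of the 39 genes was 0.57, 0.53 and 0.47, so it was above 0 in each. For all tested genes these medians were -0.009, -0.014 and -0.013. The ratios set libraries of the same number side by side, and these numbers did not pair all the samples.

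The changes were moderate in size. Log2 fold changes of the 39 genes ran between -1.01 and 1.16; 6 genes rose at least 2-fold, and 6.57% of all tested genes did so. In 21 of the 39 genes every IP library was above every Input library, as in 27.9% of all genes, and in 2 genes every IP library was below, as in 33.7%. These 21 are not quite the 21 that passed the test, since Becn1 had no overlap without passing and Rb1cc1 passed with an overlap. Against a fold change of 1.5, a test chosen after seeing the data, 9 of the 39 genes were higher in IP and 0 lower, where 8.78% of all genes were higher and 16.0% lower. At an unadjusted p under 0.05, 12 were higher and 1 lower (Wipi1) in this edgeR test. The share of all genes past that looser threshold was not counted, so these numbers have no background. No other tool was run against that fold. The summed level of the 40 genes was 3952, 4441 and 4118 CPM in IP and 2728, 2595 and 2617 CPM in Input, a ratio of 1.58.

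**Figure D1:**
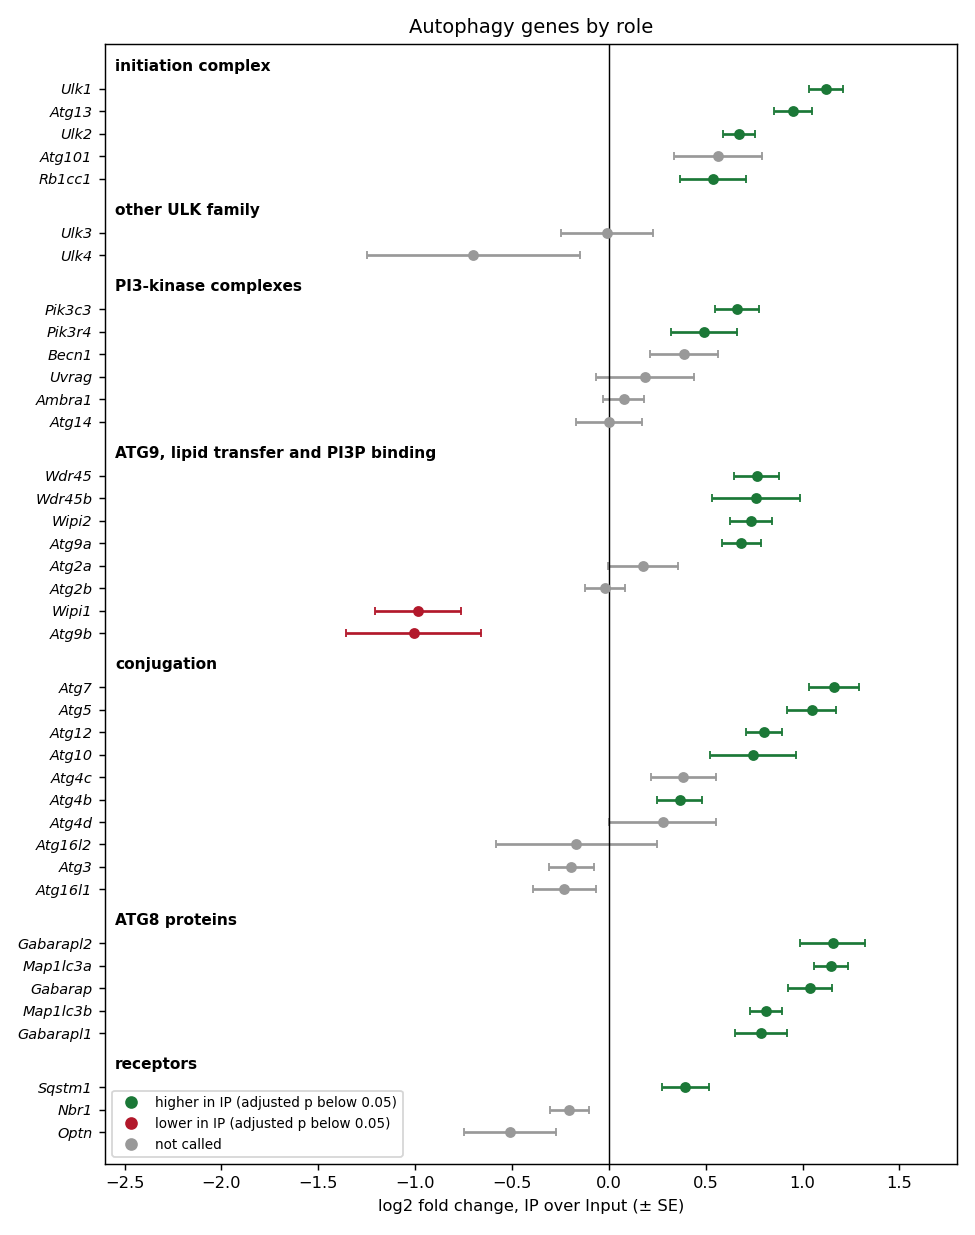
Log2 fold change (IP over Input, x axis) of each of the 39 tested autophagy genes, grouped by role, with bars for the standard error (n = 3 per group) and colour for the call at an adjusted p of 0.05. All 5 ATG8 genes lie to the right of 0, and Wipi1 and Atg9b are the called genes to the left.

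**Figure D2:**
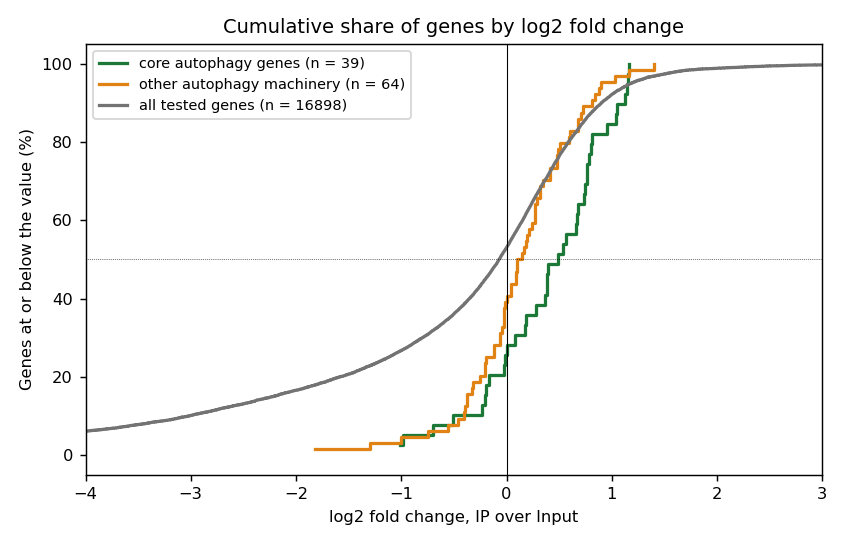
Cumulative share of genes (y axis, percent) at or below a given log2 fold change (IP over Input, x axis) for the 39 tested autophagy genes, the other autophagy machinery and all 16898 tested genes. The curve of the autophagy genes crosses the middle at 0.49, to the right of the curve of all genes at -0.07.

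How many genes passed depended on the scaling of the libraries. Scaling by trimmed mean of M-values (TMM) gave the counts above, with 21 higher and 2 lower. Upper-quartile scaling gave 15 higher and 5 lower, and library totals gave 15 higher and 6 lower. The shares of all genes given above (23.3% higher and 24.3% lower) hold for TMM alone, so the other counts have no such share beside them. The median of all tested genes was -0.07 with TMM, -0.25 with upper-quartile scaling and -0.31 with library totals. Relative to that median, the autophagy genes lay 0.56, 0.56 and 0.55 higher. A change of scaling shifts all genes by nearly the same amount, so this distance could hardly change and is no check on the result. Of the 23 genes called, 15 kept their call under all 18 alternatives to the settings used: Ulk1, Ulk2, Atg13, Pik3c3, Atg9a, Wipi2, Wdr45, Atg5, Atg7, Atg12 and the 5 ATG8 genes.

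The ATG8 genes were the role in which every tested gene rose. Gabarapl1, whose product belongs to the GABARAP branch that also binds GABA-A receptors and microtubules, had 986, 1505 and 1219 CPM in IP and 741, 695 and 715 CPM in Input. The lowest IP library was above the highest Input library, but the IP libraries were more spread than those of Input. The log2 fold change was 0.79 (adjusted p = 0.00124, SE 0.13). In the annotation 28.3% of the exonic bases of Gabarapl1 overlap 1700101I11Rik on the opposite strand, and the strand setting of the counting is not known. Gabarap, the founding member of its branch, had 242, 183 and 200 CPM in IP and 107, 97.4 and 99.2 CPM in Input. It rose by a log2 fold change of 1.04 (adjusted p = 1.00e-04, SE 0.11), and every IP library lay above all Input libraries.

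Gabarapl2, also known as GATE-16 and tied to transport within the Golgi, had 31.1, 22.8 and 27.9 CPM in IP and 12.2, 13.2 and 11.3 CPM in Input. Its log2 fold change of 1.16 (adjusted p = 5.21e-04, SE 0.17) was close to the largest of all autophagy genes. Processed pseudogenes nearly identical to its mRNA, Gm3724 (99.4% over 349 bases), Gm6051 (98.0% over 352 bases) and Gm5829 (96.6% over 351 bases), could take or share its reads, so its level is uncertain. Map1lc3a, one of the LC3 genes, had 207, 209 and 194 CPM in IP and 97.2, 92.5 and 86.3 CPM in Input. Its groups were well apart, with a log2 fold change of 1.15 (adjusted p = 1.26e-05, SE 0.09). Map1lc3b, whose product is the usual marker of autophagosomes, had 286, 301 and 266 CPM in IP and 169, 163 and 154 CPM in Input. It rose by a log2 fold change of 0.81 (adjusted p = 6.76e-05, SE 0.08). In all 3 replicates and under all 18 alternatives each of these 5 genes was higher in IP.

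Per kilobase of exon, the unit in which levels of different genes can be set side by side, Gabarapl1 was the highest of the 40 genes in both groups, with 680 ± 143 CPM per kilobase in IP and 394 ± 12.9 in Input (mean and SD over 3 libraries). Map1lc3a came next with 183 ± 7.67 in IP and 82.7 ± 4.94 in Input, and Gabarap followed with 154 ± 22.6 in IP and 75.0 ± 3.92 in Input. The IP libraries of these neighbours overlapped, since Gabarap reached 179 in IP replicate 1 and Map1lc3a was as low as 174 in IP replicate 3. Map1lc3b had 112 ± 6.90 in IP and 64.0 ± 3.04 in Input, and Sqstm1, next in order, had 79.2 ± 13.4 in IP and 60.2 ± 3.59 in Input. Among the ATG8 genes alone, Gabarapl1 made up 58.9 ± 6.24% of the summed level per kilobase in IP and 63.3 ± 0.870% in Input. Map1lc3a made up 16.1 ± 1.69% in IP and 13.3 ± 0.516% in Input, and Gabarapl2 had the smallest share, with 1.44 ± 0.363% in IP and 1.17 ± 0.104% in Input. Because the pseudogenes named above could take or share reads of Gabarapl2, its share is uncertain, and so are the shares set against it. The family thus kept the same leading gene in both groups, and no test was run on the shares.

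**Figure D3:**
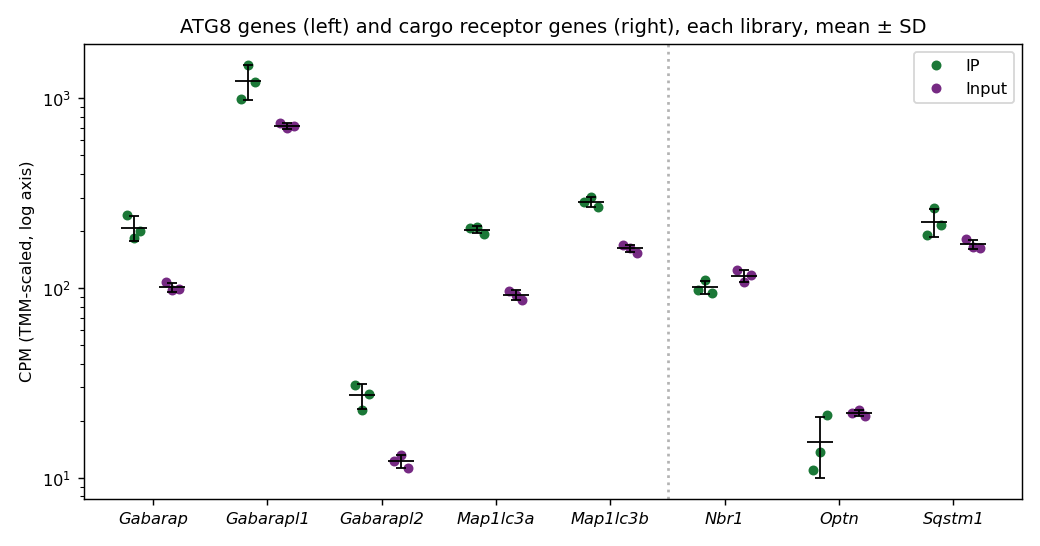
CPM (y axis, log scale) of the 5 ATG8 genes and the 3 cargo receptors in each library (points), IP left of Input, with black bars for the mean ± SD of 3 libraries. In each ATG8 gene the 3 IP libraries sit above the 3 Input libraries, while Nbr1 and Optn overlap.

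**Figure D4:**
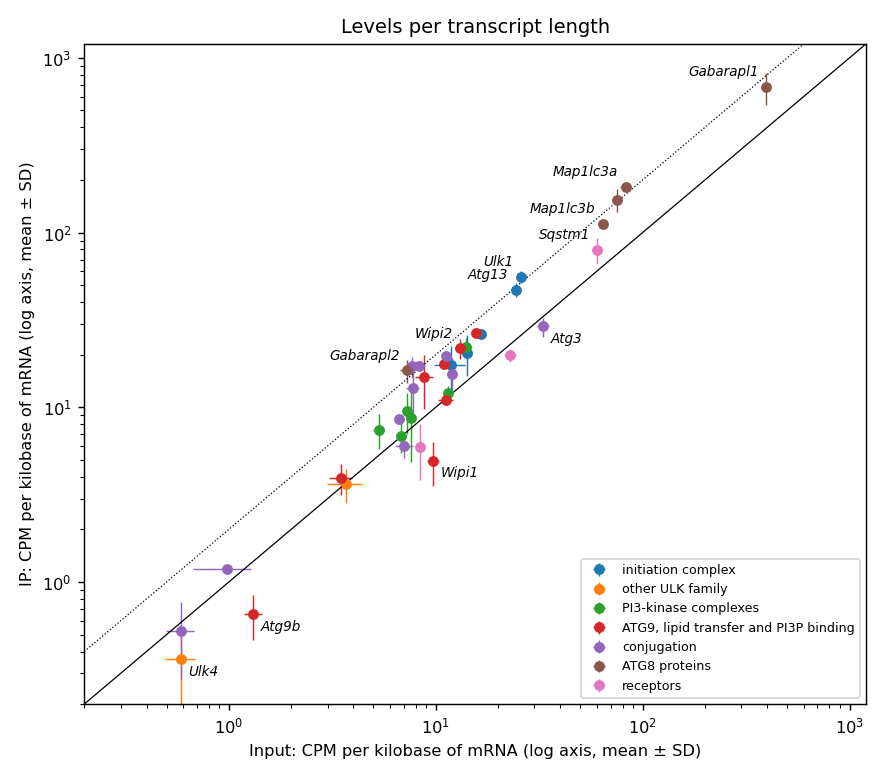
Level per kilobase of exon (CPM per kilobase, log scales) of each of the 39 tested autophagy genes in IP (y axis) and Input (x axis), as means with SD bars over 3 libraries, coloured by role; the solid line marks equal levels and the dotted line a 2-fold higher level in IP. Gabarapl1 lies highest, at 680 in IP and 394 in Input, and Map1lc3a, Gabarap and Map1lc3b follow.

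Of the 3 cargo receptors, which tether ubiquitinated cargo to ATG8 proteins, 1 rose and 2 passed in neither direction. Sqstm1, which encodes p62, had 190, 265 and 216 CPM in IP and 182, 165 and 164 CPM in Input. IP lay above Input with a narrow gap, and the log2 fold change was 0.40 (adjusted p = 0.0237, SE 0.12). The call was lost without Input replicate 2 (adjusted p = 0.0788) or Input replicate 3 (0.0867) and with library totals (0.369, the largest value). Upper-quartile scaling (0.166), a stricter filter (0.128) and leaving out replicate 2 (0.14) or 3 (0.139) of both groups also lost it. Nbr1, a receptor related to p62, had 98.3, 111 and 94.7 CPM in IP and 124, 108 and 117 CPM in Input. IP replicate 2 lay above Input replicate 2, and the log2 fold change was -0.20 (adjusted p = 0.119, SE 0.10). It passed as lower with upper-quartile scaling (0.0113), library totals (0.0102), a stricter filter (0.0108), DESeq2 (0.0451) and without IP replicate 2 (0.0411). Optn, a receptor for damaged mitochondria and bacteria that is mutated in familial amyotrophic lateral sclerosis, had 11.0, 13.8 and 21.6 CPM in IP and 21.9, 22.9 and 21.1 CPM in Input. IP replicate 3 reached the Input range while the other IP libraries lay below it, and the log2 fold change was -0.51 (adjusted p = 0.104, SE 0.24). It passed as lower without IP replicate 3 (adjusted p = 0.00609) or without replicate 3 of both groups (0.0302), and also with upper-quartile scaling (0.0373), library totals (0.0386), a stricter filter (0.0293) and limma-voom (0.0444).

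The kinase complex that starts autophagy was higher in IP in 4 of its 5 genes, with a median log2 fold change of 0.67. Ulk1, its kinase (chr5:110784488-110810097), had 278, 278 and 320 CPM in IP and 140, 129 and 134 CPM in Input. The groups were far apart relative to their spread, and Ulk1 rose by a log2 fold change of 1.12 (adjusted p = 1.55e-05, SE 0.09). Ulk2, the related kinase, had 145, 152 and 156 CPM in IP and 94.4, 92.4 and 97.3 CPM in Input. Its rise was smaller, with a log2 fold change of 0.67 (adjusted p = 1.81e-04, SE 0.08). Atg13, the adaptor that binds the kinase, had 186, 176 and 155 CPM in IP and 92.8, 88.5 and 86.3 CPM in Input, and it rose by 0.95 on the log2 scale (adjusted p = 6.18e-05, SE 0.10).

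Rb1cc1, which encodes the scaffold FIP200, had 196, 114 and 158 CPM in IP and 107, 102 and 115 CPM in Input. IP replicate 2 fell within the Input range, and the log2 fold change of 0.54 (SE 0.17) had an adjusted p of 0.0277. The call was lost without IP replicate 1 (adjusted p = 0.0510) or 3 (0.0595), or Input replicate 1 (0.0820), 2 (0.0890) or 3 (0.0532). Upper-quartile scaling (0.12), library totals (0.16) and a stricter filter (0.0774) also lost it. So did leaving out replicate 1 (0.145) or 3 (0.126) of both groups, and the alternatives reached 0.160. Atg101, the partner of Atg13, had 16.2, 28.4 and 22.2 CPM in IP and 17.4, 12.3 and 15.6 CPM in Input. The groups overlapped through IP replicate 1, and it did not pass (log2 fold change 0.56, SE 0.23, adjusted p = 0.0688), but without that library it did (0.00896). The other ULK relatives, which are not part of this complex, both failed to pass. Ulk3 had 7.98, 12.5 and 10.4 CPM in IP and 12.6, 8.70 and 9.85 CPM in Input, with a log2 fold change of -0.01 (SE 0.24). Ulk4 was the tested gene with the fewest reads, down to 35 counts in IP replicate 2, and its log2 fold change was -0.70 (adjusted p = 0.327, SE 0.55). It had 117, 35 and 57 counts in IP and 53, 119 and 149 in Input.

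Of the 6 genes of the PI3-kinase complexes, 2 rose (33.3%, against 23.3% of all tested genes) and 4 passed in neither direction. The median of the 6 was 0.29. Pik3c3, the catalytic subunit VPS34, had 80.8, 63.6 and 72.7 CPM in IP and 47.6, 45.1 and 44.7 CPM in Input. All IP libraries lay above Input, with a log2 fold change of 0.66 (adjusted p = 0.00143, SE 0.12). Pik3r4, the subunit VPS15, had 44.3, 33.0 and 28.7 CPM in IP and 26.2, 25.9 and 23.3 CPM in Input. The gap was small beside the spread in IP, and the log2 fold change was 0.49 (adjusted p = 0.0401, SE 0.17). This call was lost without IP replicate 1 (adjusted p = 0.0728) or without Input replicate 1 (0.0879), 2 (0.0916) or 3 (0.137). It was also lost with relative log expression scaling (0.061), upper-quartile scaling (0.17), library totals (0.233, the largest value) and a stricter filter (0.138). Leaving out replicate 1 (0.124), 2 (0.1) or 3 (0.0695) of both groups lost it too.

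Becn1, the subunit that binds BCL2 and joins either complex, had 36.3, 58.4 and 40.0 CPM in IP and 35.4, 33.6 and 34.1 CPM in Input. IP lay above Input in every library, but the log2 fold change of 0.39 (SE 0.18) did not pass (adjusted p = 0.0991), and without IP replicate 1 it did (0.0189). Cntd1 on the opposite strand shares 43.9% of its exonic bases, so reads of these genes may not have been told apart. Atg14, which directs the complex to the site of autophagosome formation, had 27.1, 18.2 and 25.3 CPM in IP and 23.7, 23.4 and 23.4 CPM in Input, a log2 fold change of 0.00 (SE 0.17). Uvrag, which takes its place in the endosomal complex, had 30.9, 67.4 and 36.1 CPM in IP and 38.6, 40.3 and 39.2 CPM in Input. IP replicate 2 stood far above the others, and the log2 fold change was 0.19 (adjusted p = 0.577, SE 0.25). Ambra1, a regulator of Becn1 and the uncalled gene of this role with the most CPM, had 68.9, 57.2 and 65.3 CPM in IP and 60.3, 59.7 and 61.6 CPM in Input, with a log2 fold change of 0.08 (adjusted p = 0.578, SE 0.10).

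Among the 8 genes for ATG9, lipid transfer and PI3P binding, 4 rose, 2 fell and 2 passed in neither direction. Atg9a, the lipid scramblase of the vesicles that seed the membrane, had 71.9, 74.1 and 68.0 CPM in IP and 42.5, 43.6 and 47.2 CPM in Input. It rose by a log2 fold change of 0.68 (adjusted p = 5.65e-04, SE 0.10), and 31.8% of its exonic bases are shared with Gm29253 on the same strand. Its relative Atg9b had 2.16, 3.38 and 2.09 CPM in IP and 5.72, 4.85 and 4.80 CPM in Input. Its groups did not overlap in the other direction, with a log2 fold change of -1.01 (adjusted p = 0.0379, SE 0.35). That call was lost when IP replicate 1 (adjusted p = 0.0507) or 3 (0.0648) was left out. Leaving out Input replicate 1 (0.143), 2 (0.106) or 3 (0.106) also lost it, as did no filter on low counts (0.0583). So did leaving out replicate 1 (0.158), 2 (0.0565) or 3 (0.157) of both groups, and the alternatives reached 0.158.

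The PI3P-binding proteins, which read the lipid mark and recruit the conjugation enzymes or ATG2, split in direction. Wipi2, which recruits Atg16l1, had 105, 129 and 103 CPM in IP and 69.3, 66.2 and 67.1 CPM in Input. It rose by a log2 fold change of 0.74 (adjusted p = 6.12e-04, SE 0.11), with every IP library above Input. Wipi1 (chr11:109573331-109611967), a close relative, had 7.20, 10.1 and 12.9 CPM in IP and 20.4, 20.9 and 18.5 CPM in Input. Every IP library was below every Input library, and it fell by 0.99 on the log2 scale (adjusted p = 0.00560, SE 0.22). Its call was lost without the libraries of replicate 2 in both groups (0.0513), the largest value over its alternatives. Astrocyte, oligodendrocyte, microglia and endothelial markers were also lower in IP, by median log2 fold changes of -3.13, -3.60, -3.56 and -4.14. The part of these cell types in the lower values of Wipi1 and Atg9b was not tested.

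Wdr45, the gene of beta-propeller protein-associated neurodegeneration in humans (chrX:7714333-7728206 in the mouse), had 44.7, 41.6 and 46.5 CPM in IP and 24.4, 26.8 and 27.0 CPM in Input. Its log2 fold change was 0.76 (adjusted p = 7.08e-04, SE 0.12), and 24.7% of its exonic bases are shared with the gene model Gm45208 on the same strand. Wdr45b, its relative, had 24.8, 31.3 and 47.6 CPM in IP and 21.2, 21.9 and 18.1 CPM in Input. IP was above Input but widely spread, and the log2 fold change of 0.76 (SE 0.23) had an adjusted p of 0.0208. That call was lost without Input replicate 1 (0.0582) or Input replicate 3 (0.0787), with alternatives up to 0.178. Upper-quartile scaling (0.0599) and library totals (0.101) also lost it, as did leaving out replicate 2 (0.0625) or 3 (0.178) of both groups. The lipid transfer proteins did not pass. Atg2a had 21.4, 31.1 and 23.0 CPM in IP and 19.8, 21.5 and 25.4 CPM in Input, with a log2 fold change of 0.18 (SE 0.18). Atg2b, the more abundant by CPM per kilobase, had 89.8, 79.0 and 80.5 CPM in IP and 92.5, 78.3 and 82.1 CPM in Input, with a log2 fold change of -0.02 (adjusted p = 0.888, SE 0.10).

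The conjugation enzymes attach ATG12 to ATG5 and ATG8 proteins to lipid. Of the 10 tested, 5 rose and 5 passed in neither direction, with a median of 0.37. Atg7 (chr6:114643097-114860614), the E1 enzyme that activates both ATG12 and ATG8, had 68.9, 56.9 and 75.3 CPM in IP and 31.0, 28.7 and 30.2 CPM in Input. The groups were far apart, and it had the largest log2 fold change of all 39 genes, 1.16 (adjusted p = 1.03e-04, SE 0.13), above that of 94.7% of all tested genes. Atg5, which carries ATG12, had 42.1, 37.9 and 41.3 CPM in IP and 18.3, 21.0 and 19.3 CPM in Input. It rose by a log2 fold change of 1.05 (adjusted p = 1.70e-04, SE 0.13). Atg12, the ubiquitin-like protein itself, had 91.0, 92.3 and 96.5 CPM in IP and 54.4, 55.4 and 50.6 CPM in Input, and rose by 0.80 on the log2 scale (adjusted p = 1.28e-04, SE 0.09).

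Atg10, the E2 enzyme of ATG12, had 27.7, 17.1 and 16.5 CPM in IP and 13.2, 12.1 and 11.5 CPM in Input. IP replicate 1 was well above the other IP libraries, and the log2 fold change was 0.74 (adjusted p = 0.0213, SE 0.22). This call was lost without Input replicate 1 (0.0525), 2 (0.0694) or 3 (0.0787), the last being the largest value over its alternatives. It was also lost with upper-quartile scaling (0.0666) or library totals (0.0778). Leaving out replicate 1 (0.0593), 2 (0.0559) or 3 (0.0627) of both groups lost it too. Atg3, the E2 enzyme of ATG8 and the uncalled gene of this role with the most CPM, had 54.8, 68.2 and 55.9 CPM in IP and 65.8, 73.3 and 65.4 CPM in Input. IP replicate 2 lay within the Input range, and the log2 fold change was -0.19 (adjusted p = 0.205, SE 0.12). It passed as lower without IP replicate 2 (0.0373), with upper-quartile scaling (0.0257), library totals (0.0279) and a stricter filter (0.0282).

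Atg16l1, which holds ATG12 and ATG5 at the membrane, had 19.4, 16.2 and 21.9 CPM in IP and 20.9, 24.9 and 21.5 CPM in Input, a log2 fold change of -0.23 (adjusted p = 0.278, SE 0.16), and it passed as lower only with library totals (0.0453). Its relative Atg16l2 had 5.06, 1.98 and 3.06 CPM in IP and 3.13, 3.99 and 4.23 CPM in Input, with a log2 fold change of -0.17 (SE 0.42). Of the ATG4 proteases that expose the glycine shown above, Atg4b, the most active toward LC3 in biochemical work, had 35.9, 37.2 and 34.2 CPM in IP and 28.2, 27.8 and 27.3 CPM in Input. It rose by a log2 fold change of 0.37 (adjusted p = 0.0257, SE 0.11). Its call was lost without Input replicate 1 (0.0745), 2 (0.0863) or 3 (0.107) and with a stricter filter (0.206). Upper-quartile scaling (0.207) and library totals (0.421, the largest value) lost it too. So did leaving out replicate 1 (0.0583), 2 (0.111) or 3 (0.108) of both groups. Atg4c had 59.5, 37.1 and 52.0 CPM in IP and 40.2, 36.6 and 37.1 CPM in Input, with an overlap through IP replicate 2. Its log2 fold change of 0.38 (SE 0.17) did not pass (adjusted p = 0.0871), but without that library it did (0.00408). Atg4d had 7.22, 6.82 and 7.15 CPM in IP and 4.07, 7.68 and 5.66 CPM in Input, with a log2 fold change of 0.28 (SE 0.28). Atg4a was not tested, with 7, 2 and 0 counts in IP and 4, 10 and 1 in Input, and a copy 99.3% identical to it over 2115 bases, Atg4a-ps, may take its reads.

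Within a library, the ratio of 2 related genes does not depend on how the libraries are scaled. For 9 pairs of relatives, chosen after seeing the data by a shared name stem, this ratio was compared between groups by an exact two-sided permutation test, which with 3 against 3 libraries cannot give a p under 0.1. Wipi2 was 11.8 ± 3.39 times as high as Wipi1 in IP and 3.40 ± 0.236 times in Input (SD, n = 3 each, exact permutation p = 0.1, adjusted p = 0.225 over the 9 pairs). Atg9a was 29.2 ± 6.32 times as high as Atg9b in IP and 8.74 ± 1.22 times in Input (exact permutation p = 0.1, adjusted 0.225), with the same limit on the reads of Atg9a. In these pairs the log2 ratio differed by 1.75 and 1.73 between IP and Input, and by 1.57 to 2.01 and 1.61 to 1.92 with 1 library left out. Ulk1 was 1.93 ± 0.109 times as high as Ulk2 in IP and 1.42 ± 0.0543 times in Input, and Map1lc3a was 0.716 ± 0.0183 times Map1lc3b in IP and 0.568 ± 0.00704 times in Input, both without overlap and with an exact permutation p of 0.1 (adjusted 0.225). The ratio of Gabarapl1 to Gabarapl2 was 47.2 ± 17.4 in IP and 58.9 ± 5.58 in Input, with overlapping libraries (exact permutation p = 0.4, adjusted 0.72). Its size rests on the level of Gabarapl2, which is uncertain because of its pseudogenes. The other 4 pairs (Atg2a with Atg2b, Wdr45 with Wdr45b, Atg16l1 with Atg16l2 and Atg4b with Atg4c) differed by at most 0.19 on the log2 scale and overlapped. No pair passed after adjustment.

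**Figure D5:**
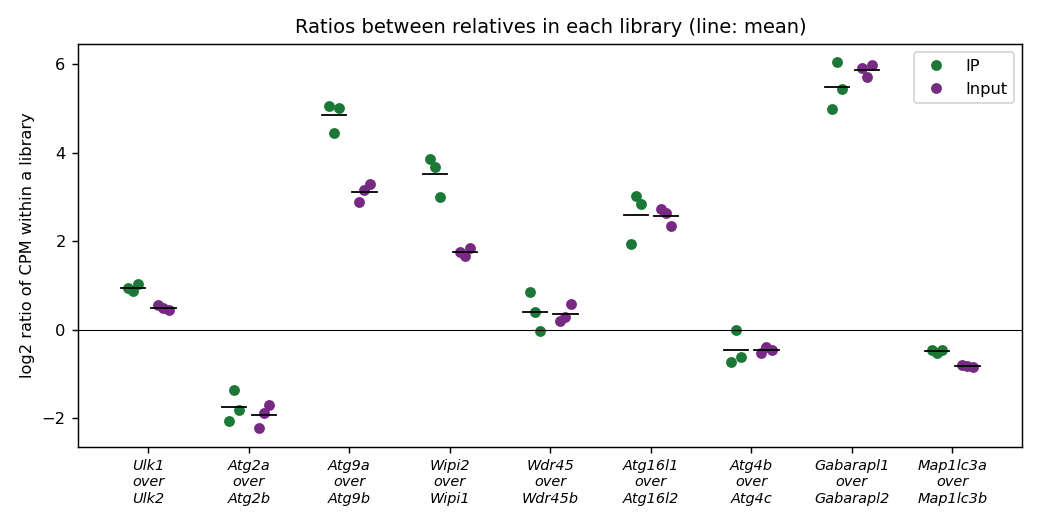
Log2 ratio of CPM between 2 related genes within each library (y axis) for 9 pairs, IP left of Input, with a line at the mean of 3 libraries. The ratios of Wipi2 to Wipi1 and of Atg9a to Atg9b are higher in every IP library than in every Input library, by 1.75 and 1.73 on average.

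Log2 fold changes of the autophagy genes were weakly related to length. Across the 39 genes Spearman's rho with the length of merged exons, as used for levels per kilobase, was -0.30 and with coding length -0.47. Across 13936 protein-coding genes these values were -0.17 and -0.22. They are descriptions across genes measured in the same 6 libraries, and genes are not independent replicates. Of the 7 autophagy genes with merged exons under 2000 bases, 6 rose, with a median of 0.79. Of 3317 protein-coding genes of that size 1204 rose and 478 fell, with a median of 0.30. Above that size the medians of the autophagy genes did not follow a steady order, with 0.19 for 8 genes of 2000 to 3000 bases, 0.38 for 7 genes of 3000 to 4000, 0.39 for 13 genes of 4000 to 6000 and 0.08 for 4 longer genes. Over the same classes the medians of protein-coding genes were 0.07, -0.05, -0.06 and -0.20. Coding length was that of the longest annotated coding sequence of a gene, which for Map1lc3b has 519 bases, against 375 in the transcript whose end is shown above. The part of length in the fold changes of the ATG8 genes was not tested.

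Genes that regulate or complete autophagy but were not among the 40 included both rises and falls. Of 64 tested (of 65 listed; Vamp7 had 0 counts in every library), 20 rose (31.2%) and 8 fell (12.5%), against 23.3% and 24.3% of all genes, and their median log2 fold change was 0.13. Among 24 regulators of autophagy, 6 rose (25.0%) and 5 fell (20.8%), close to the shares of all genes. Rheb, the GTPase that activates mTORC1, had 266 ± 13.4 CPM in IP and 119 ± 5.58 CPM in Input, a log2 fold change of 1.16 (edgeR adjusted p = 9.27e-06, SE 0.08). Nrbf2, a subunit of the Atg14 complex, had 7.14 ± 1.25 CPM in IP and 3.48 ± 0.376 CPM in Input (1.03, adjusted p = 0.0126, SE 0.28). With a mean of at least 5 CPM, the largest falls were in Prkab2, a subunit of AMPK, with 16.2 ± 3.17 CPM in IP and 32.5 ± 2.96 CPM in Input (adjusted p = 0.00125), and Sh3glb1, a partner of Uvrag, with 96.2 ± 4.49 CPM in IP and 161 ± 3.39 CPM in Input (-0.74, adjusted p = 1.06e-04, SE 0.08). Tfeb, a transcription factor of lysosomal genes named here after its values were seen, lay under that level, with 2.07 ± 1.17 CPM in IP and 5.09 ± 0.455 CPM in Input, and had a larger fall (-1.30, adjusted p = 0.0371, SE 0.45).

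Of 18 other cargo receptors and mitophagy genes, 8 rose (44.4%) and 2 fell (11.1%), against 23.3% and 24.3% of all tested genes. Bnip3, a mitophagy receptor, had 106 ± 16.0 CPM in IP and 40.0 ± 2.74 CPM in Input, and Fkbp8, another, had 194 ± 33.9 CPM in IP and 104 ± 3.22 CPM in Input, with log2 fold changes of 1.40 (SE 0.13) and 0.89 (SE 0.12). The genes that fell were Tax1bp1, a relative of the receptor Calcoco2, by 0.37 on the log2 scale, and Ccpg1, a receptor for the endoplasmic reticulum, by 0.32. Of 8 further genes listed for the forming membrane, 1 rose (12.5%). It was Epg5, with a log2 fold change of 0.32 (adjusted p = 0.0448, SE 0.12). Epg5 and Tecpr1 were also listed for fusion with the lysosome and are counted in both lists. Of 16 tested genes for fusion with the lysosome, 6 rose (37.5%) and 1 fell (6.25%). The gene that fell was Vamp8, whose mean lay under 5 CPM and which is named here after its values were seen. It had 1.84 ± 1.04 CPM in IP and 6.48 ± 1.37 CPM in Input, a log2 fold change of -1.82 (edgeR adjusted p = 0.0131, SE 0.49). Rab7, the GTPase of late endosomes and lysosomes, had 492 ± 34.8 CPM in IP and 266 ± 6.18 CPM in Input (0.88 on the log2 scale, SE 0.08, adjusted p = 3.29e-05), and Vps41, a subunit of the HOPS tethering complex, had 276 ± 19.6 CPM in IP and 172 ± 5.09 CPM in Input (0.68, adjusted p = 1.83e-04, SE 0.08).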

How the data were processed

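RNA of thalamus was sequenced in 3 IP and 3 Input libraries. The labels name ribosome-bound RNA for both, but only IP is described as recovered with antibodies. Whether Input also held RNA outside ribosomes was not tested. The authors deposited raw read counts per gene for each library. STAR 2.0.0e, build mm10 and HTSeq are named in the submitters' processing notes; the version of HTSeq, its strand setting, overlap mode and annotation are not given in the sources used here. Reads tied to no gene entered neither the library sizes nor the tests: reads not uniquely aligned were 45.9 ± 3.39% of all lines in IP and 33.3 ± 0.687% in Input, reads outside features 8.87 ± 0.478% in IP, against 15.4 ± 0.591% in Input, and ambiguous reads 1.48 ± 0.140% in IP, against 5.89 ± 0.622% in Input. Rn45s, the ribosomal RNA precursor, made up 11.2 ± 2.86% of the assigned total in IP, against 5.33 ± 0.103% in Input (mean and SD over 3 libraries).

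The sample-type label gave the groups. Genes passing filterByExpr (minimum count 10) were compared with edgeR 4.0.16 (R 4.3.3), using TMM scaling, robust quasi-likelihood F-tests and Benjamini-Hochberg adjustment over all tested genes. The standard error is the log2 fold change divided by the square root of F. CPM are counts per 1e6 TMM-scaled counts. Levels per kilobase use merged exons of RefSeq-paired transcripts of GENCODE M21 (GRCm38), in which all 40 symbols were found. Script output was tested on simulated data. Alternatives were other scalings, filters, DESeq2 1.42.0, limma-voom (limma 3.58.1), a replicate block and each library or replicate number left out. Members and lists were chosen with earlier results of these data known; the test against a 1.5-fold change and the ratios of relatives were added after seeing the data. Every autophagy gene may be named. Of other lists, the 2 largest called changes each way with a mean of at least 5 CPM are named, and Tfeb and Vamp8 are named in addition, under that level.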

Additional observations from a re-analysis of the deposited data

How the results depend on the processing

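All 18 alternatives kept the direction of every called autophagy gene. Of 39 tested genes, 21 higher and 2 lower in IP became 9 and 0 against a 1.5-fold change. Lower genes numbered 5 with upper-quartile scaling, 6 with library totals, 1 with no filter on low counts and 5 with a stricter filter. These lower counts have no share of all genes in the same setting beside them. With libraries left out, 15 to 22 of the 39 were higher and 0 to 4 lower. Their median of 0.49 was 0.32 with upper-quartile scaling, 0.25 with library totals, 0.35 with the stricter filter and 0.44 to 0.57 with libraries left out. For autophagy genes outside the 40, the 20 higher were 12, 9 and 13 with upper-quartile scaling, totals and the stricter filter (11 to 22 with libraries left out). The 8 lower were 13 with upper-quartile scaling and 15 with totals (4 to 11 with libraries left out). Over all genes, 3930 higher were 2458 with totals and 1484 against a 1.5-fold change (2659 to 4392 with libraries left out), and 4100 lower were 2700 against a 1.5-fold change (3017 to 5066 with libraries left out). The cause of these shifts was not tested.

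Replicate numbers, which also follow the sequencing lanes, did not pair all the samples. Correlations of same-numbered libraries were 0.16, 0.05 and 0.04. IP replicate 1 correlated best with its own number, against -0.096 with Input replicate 2 and -0.098 with Input replicate 3. IP replicates 2 and 3 correlated best with other numbers. With the replicate block, 20 autophagy genes were higher and 1 lower, with a median of 0.47; the calls of Atg4b (adjusted p = 0.0567) and Atg9b (0.0686) were lost.

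With 3 libraries a group, genes whose libraries scatter, such as Ulk4 and Atg16l2, have wide errors.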
